A study of Ovis aries with 7 samples.

Results

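Messenger RNA of 4 genes of the insulin-like growth factor (IGF) system, IGF1, IGF2, IGFBP2 and IGFBP3, was followed in the hypothalamus of late-gestation fetal sheep. They are 4 of the 944 genes that could be named on a 1-colour oligonucleotide array, and were measured by 6 of its 15008 distinct probes. These were all probes that carried the name of 1 of the 4 genes: 1 for IGF1, 2 for IGF2, 2 for IGFBP2 and 1 for IGFBP3. In 3 fetuses the ewe had breathed gas of low oxygen content for 30 min, after which normal gas was given, also for 30 min. In 4 age-matched control fetuses oxygen was normal over both periods. All 7 fetuses, hypoxic and control, carried chronic catheters, and each gave 1 hypothalamus and 1 array. The tissue was taken at the end of recovery, 60 min after the onset of hypoxia, so that a change during the hypoxia itself or later than this time was not observed.

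IGF1 and IGF2 are secreted growth factors that act mainly through the IGF1 receptor, a tyrosine kinase that signals through AKT and through the MAP kinases. The IGF2 receptor carries IGF2 to lysosomes and so removes it. The IGF binding proteins hold the ligands outside the cell and, once cut by proteases, release them. IGF2 is imprinted in mammals, and in the rodent brain it is made chiefly by the meninges, the choroid plexus and blood vessels. IGFBP2 is a major binding protein of the fetal brain and the cerebrospinal fluid. IGFBP3 is the main IGF carrier of blood, and IGF1 in brain comes from neurons and glia as well as from the circulation.

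The probes are 60 bases long and are shown here because the 2 IGF2 probes read separate stretches of the transcript while the 2 IGFBP2 probes read almost the same one. The longest run shared by the IGF2 probes is 6 bases, and their starts lie 564 bases apart in the transcript. The IGFBP2 probes start 1 base apart and share a run of 59 bases, so they are a repeat of 1 measurement. All are written 5′ to 3′, with the first 30 bases only for 4 of them, and capitals mark the part of the IGFBP2 run shown.
IGF1 probe A_70_P051091, start at base 520 of its transcript record: aacacaagcagagggagtgcaggaaacaag
IGF2 probe A_70_P016796, start at base 583: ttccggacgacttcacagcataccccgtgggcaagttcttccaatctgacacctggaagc
IGF2 probe A_70_P029956, start at base 1147: ctgaaatgaattggctttttagcaacacca
IGFBP2 probe A_70_P050967, start at base 1307: tTTTATTTTTGAACCCCTGTGTCTCTTTTT
IGFBP2 probe A_70_P050966, start at base 1308: TTTATTTTTGAACCCCTGTGTCTCTTTTTg
IGFBP3 probe A_70_P028616, start at base 300: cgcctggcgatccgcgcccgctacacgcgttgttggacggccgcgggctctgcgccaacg
Per the files, all 6 match sheep transcript records of these genes. Both IGF2 probes carry the same record, and no further probe of the array carried a record of any of the 4 genes.

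The arrays were of similar depth, with 77.2% to 86.4% of spots well above background and a 75th percentile of processed signal between 2024 and 2908. All 3 hypoxia arrays lay on slide 1, and the controls lay in pairs, replicates 1 and 2 on slide 2, replicates 3 and 4 on slide 3. Slide and hypoxia therefore cannot be told apart. Levels are given as log2 processed signal relative to the 75th percentile of the same array, so that 0 is that percentile, and are compared between arrays but not between probes. Control replicate 4 stood apart in some, but not all, pituitary and neuronal transcripts. Prolactin (PRL) stood at 1.13 there, against -3.80 to -3.46 on the other controls, growth hormone (GH) was well above background on that array alone, and oxytocin (OXT), a hypothalamic neurohormone, stood at -1.12, against 1.84 to 2.57 on the other controls and 1.01 to 2.44 on the hypoxia arrays. Some other pituitary genes and the neuronal gene NEFH lay within or near the range of the other controls there. These were CGA at -2.50 (-6.47 to 1.39), TSHB at -7.03 (-9.09 to -3.16), LHB at 2.31 (1.93 to 2.30) and NEFH at -3.46 (-3.42 to -2.43). Because of PRL, GH and OXT, the differences and correlations of the IGF genes are given with and without this array.

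Of the 6 probes, 0 passed the adjusted threshold of 0.05 in limma, where 0.0157% of the 12711 tested probes did (2 probes). By the unadjusted p, 2 of the 6 were under 0.05, both for IGFBP2 and both lower in hypoxia, against 6.91% of all tested probes in that direction. IGF2 and IGFBP2 averaged lower in hypoxic fetuses, while IGF1 and IGFBP3 differed little on average. All 6 probes were well above background on all 7 arrays, and none was saturated or marked as an outlier spot. In whole hypothalamus, fewer cells of a type and less RNA per cell cannot be told apart. The levels by fetus are plotted for each probe.

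**Figure D1:**
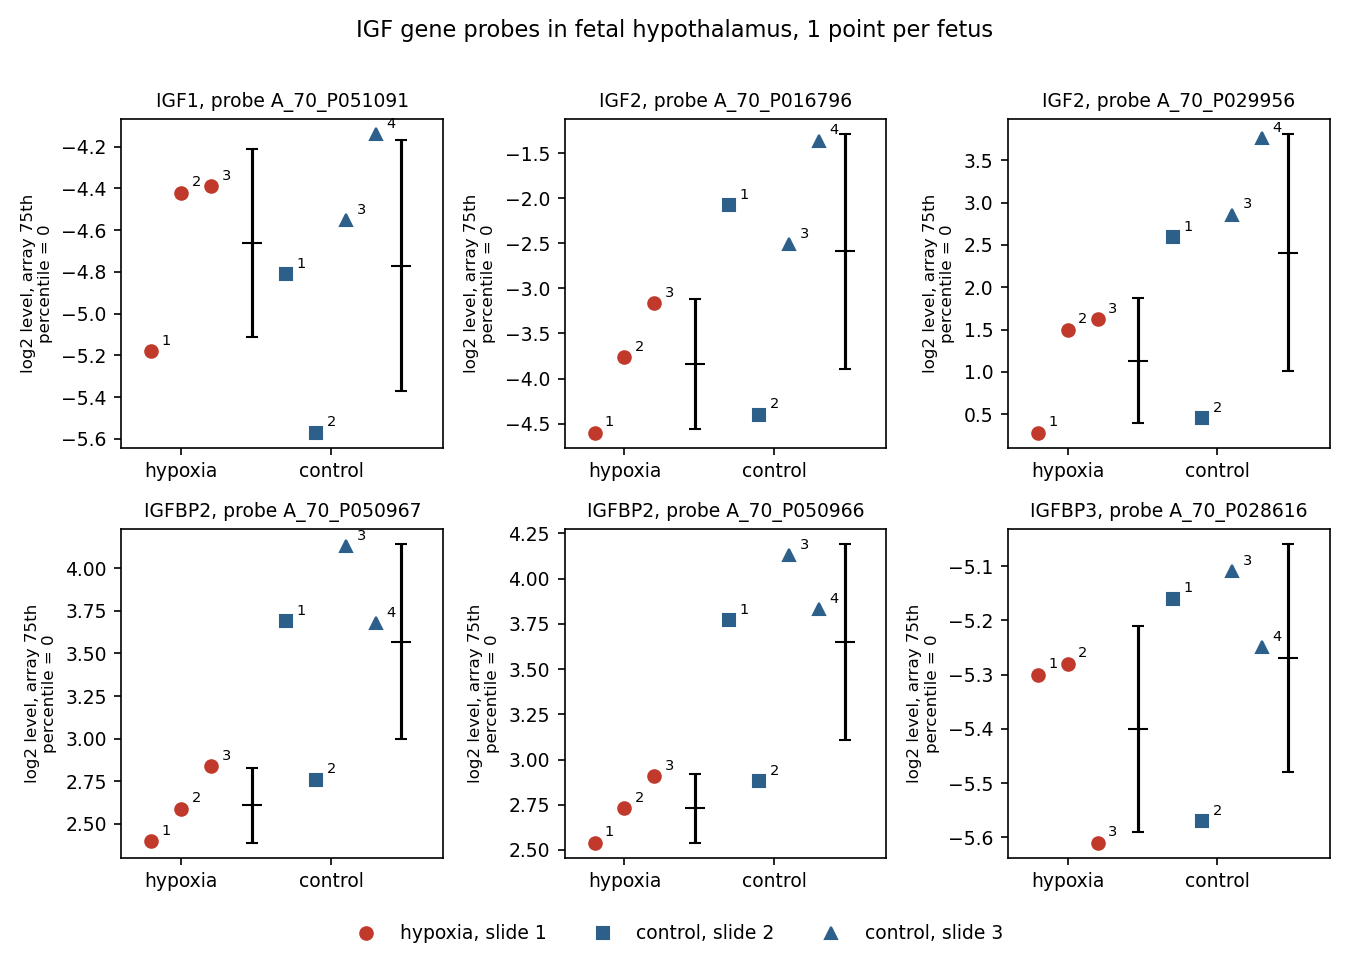
Log2 level of each IGF probe in each fetus, relative to the array's 75th percentile. Hypoxia is left of control, numbers are replicates, symbols are slides, and bars are the mean ± SD (n = 3 and 4). Control replicate 2 is the lowest control in all 6 panels, and the groups overlap in each.

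IGF2, the fetal growth factor, had levels of 0.28, 1.50 and 1.62 in hypoxia replicates 1 to 3, against 2.59, 0.45, 2.86 and 3.76 in control replicates 1 to 4, at probe A_70_P029956. All hypoxic fetuses lay below control replicates 1, 3 and 4, and control replicate 2 lay among the hypoxic fetuses. The mean was 1.13 ± 0.74 in hypoxia and 2.41 ± 1.40 in control (SD, n = 3 and 4). This was a log2 difference of -1.28, or 2.43-fold lower in hypoxia (SE 0.74, 95% confidence interval -3.01 to 0.45), and did not pass in limma (adjusted p = 0.429, unadjusted p = 0.126). As processed signal these were 3156, 6202 and 7238 in hypoxia, against 12407, 2759, 21112 and 32084 in control.

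The second IGF2 probe, A_70_P016796, which lies in the coding part of the transcript, had levels of -4.60, -3.76 and -3.16 in hypoxia, against -2.08, -4.40, -2.51 and -1.36 in control. The order of the fetuses was almost the same, with control replicate 2 again between the hypoxic fetuses. Its mean was -3.84 ± 0.72 in hypoxia and -2.59 ± 1.30 in control (SD, n = 3 and 4). Its log2 difference was -1.25 (SE 0.70, interval -2.87 to 0.37), which did not pass in limma (adjusted p = 0.414, unadjusted p = 0.112). The spot was dim on some arrays, at 2.71 times its local background on control replicate 2 and 3.26 on hypoxia replicate 1. On control replicate 4 it was at 16. The levels of the 2 probes had r = 0.98 over the 7 arrays, given as a description of 2 readings of the same RNA.

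Sorted by difference, the IGF2 probes ranked 55 and 59 from the most lowered of the 12711 tested probes, and 0.464% of probes had a difference at least as low as the smaller of them. This size went with a wide spread inside both groups. The SD over controls of 1.40 was reached or passed by 1.18% of all probes, whose median was 0.20, and the SD over hypoxic fetuses of 0.74 by 2.20%, with a median of 0.17. Among controls, the 2 fetuses of slide 3 stood 1.79 above the 2 of slide 2 on the log2 scale, or 3.46-fold. A gap as large in this direction was reached by 1.13% of probes. Hypoxia minus slide 3 was -2.17 and hypoxia minus slide 2 was -0.38, so that the distance between the control slides was larger than that between hypoxia and slide 2.

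Single fetuses moved the IGF2 value. At probe A_70_P029956 the log2 difference was -0.83 (adjusted p = 0.570) without control replicate 4, the array with the highest PRL. It was -0.85 (adjusted p = 0.714) without hypoxia replicate 1, the lowest fetus. Without control replicate 2 it was -1.93 (SE 0.44, adjusted p = 0.174), and then the groups no longer overlapped. IGF2 stayed lower in hypoxia in each of these fits, and the limma test passed in none.

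IGF1, the growth factor that growth hormone induces after birth, had levels of -5.18, -4.42 and -4.39 in hypoxia, against -4.81, -5.57, -4.55 and -4.14 in control. The groups overlapped over most of their range, with control replicate 2 lowest and hypoxia replicate 1 next to it. The mean was -4.66 ± 0.45 in hypoxia and -4.77 ± 0.60 in control (SD, n = 3 and 4), a log2 difference of 0.10 (SE 0.35, interval -0.72 to 0.92, adjusted p = 0.910 in limma). The interval holds changes of this size and larger in both directions. The spot was 2.35 to 3.71 times as bright as its local background, with a processed signal of 71, 103 and 112 in hypoxia, against 73, 43, 124 and 135 in control. Hypoxia minus the controls of slide 2 was 0.53 and hypoxia minus those of slide 3 was -0.32, so its direction depended on the control slide. Without control replicate 4 the difference was 0.31 (SE 0.33, adjusted p = 0.662).

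IGFBP2, the fetal brain binding protein, had levels of 2.54, 2.73 and 2.91 in hypoxia, against 3.77, 2.88, 4.13 and 3.83 in control, at probe A_70_P050966. The groups overlapped only through control replicate 2, which lay just under hypoxia replicate 3, and the other 3 controls were well above all hypoxic fetuses. The mean was 2.73 ± 0.19 in hypoxia and 3.65 ± 0.54 in control (SD, n = 3 and 4). Hypoxia minus control was -0.93 on the log2 scale, or 1.90-fold lower in hypoxia (SE 0.28, interval -1.59 to -0.27). It had an unadjusted p = 0.0123 in limma and did not pass after adjustment over all probes (adjusted p = 0.225). The overlapping probe A_70_P050967 had 2.40, 2.59 and 2.84 in hypoxia, against 3.69, 2.76, 4.13 and 3.68 in control, with a log2 difference of -0.95 (SE 0.30, adjusted p = 0.239).

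The interval of IGFBP2 was narrower than that of IGF2, and the hypoxic fetuses lay close together. Their SD of 0.19 was near the median over probes, with 43.3% of probes at or above it, while the control SD of 0.54 was reached by 10.7%. A difference as low as the smaller of the IGFBP2 values was seen in 1.09% of probes (138 of 12711). The difference was -0.60 against the controls of slide 2 and -1.26 against those of slide 3. Without control replicate 4 the difference was -0.87 (adjusted p = 0.269), and without control replicate 2 it was -1.19 (SE 0.16, adjusted p = 0.084), where the groups were apart. Leaving out each fetus in turn gave -1.19 to -0.77, lower in hypoxia each time, with adjusted p between 0.084 and 0.474.

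IGFBP3, the blood carrier, had levels of -5.30, -5.28 and -5.61 in hypoxia, against -5.16, -5.57, -5.11 and -5.25 in control. Hypoxia replicate 3 and control replicate 2 were low and the other 5 fetuses lay within a narrow band. Hypoxia minus control was -0.13 (SE 0.15, interval -0.48 to 0.23, adjusted p = 0.707 in limma). Without control replicate 4 it was -0.12 (SE 0.17, adjusted p = 0.767). The interval leaves out a decrease as large as the IGF2 or the IGFBP2 estimate, but the probe was dim. It was 1.61 to 2.79 times as bright as its local background, with a processed signal of 66, 57 and 48 in hypoxia, against 58, 43, 84 and 62 in control, and a change at such a signal may be understated.

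**Figure D2:**
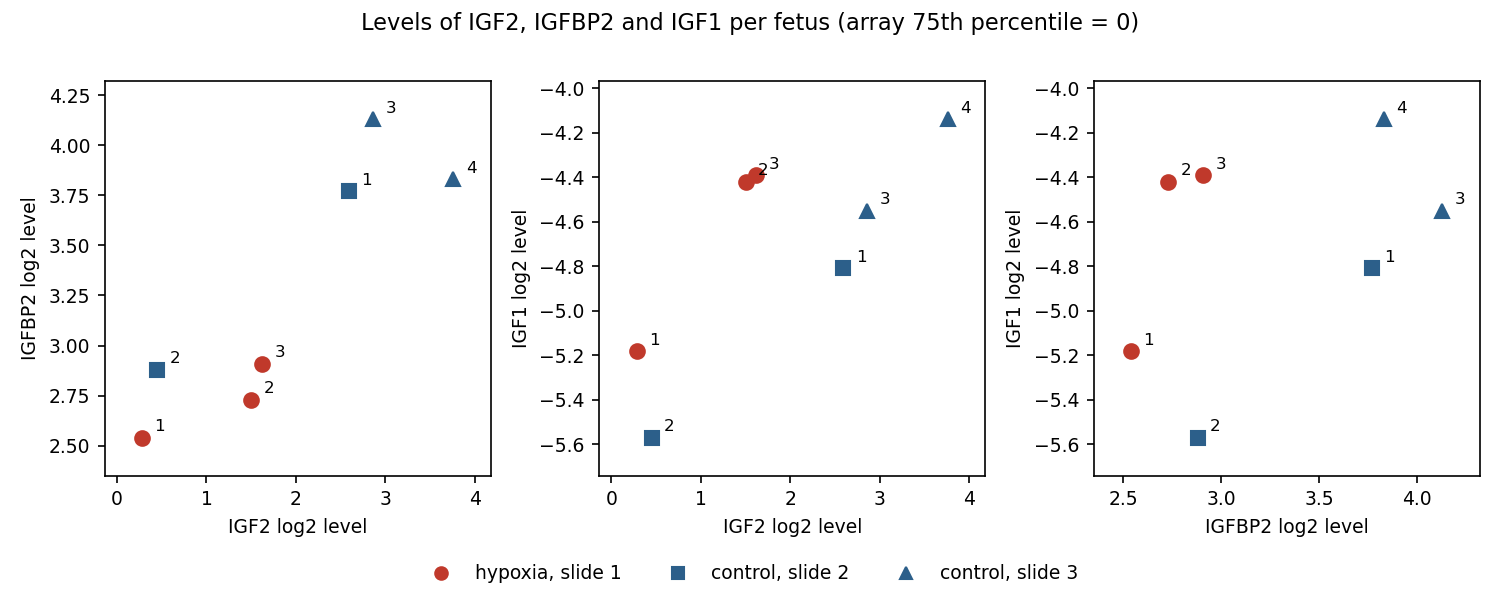
Log2 levels of IGF2 and IGFBP2 (left), IGF2 and IGF1 (middle) and IGFBP2 and IGF1 (right), 1 point per fetus at the probe with the higher mean level, numbered by replicate. IGF2 and IGFBP2 order the fetuses alike (rho = 0.93), and control replicate 2 lies with the hypoxic fetuses in the left panel.

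The levels of the 4 genes were compared across the 7 fetuses in 6 pairs, with exact permutation tests over all 5040 orders, two-sided, and Benjamini-Hochberg adjustment over the 6 pairs. IGF2 and IGFBP2 had r = 0.88 (exact p = 0.0129, adjusted p = 0.0774) and rho = 0.93 (exact p = 0.00675, adjusted p = 0.0405). These permutations run over both groups and all 3 slides, so the values include differences that the 2 genes share between groups and slides. With the group means removed r was 0.87 (exact p = 0.0486 over 144 orders within groups, adjusted p = 0.125), and with the slide means removed it was 0.77 (exact p = 0.333 over 24 orders within slides, adjusted p = 0.667), so neither passed after adjustment. The 2 controls of slide 3 stood in opposite orders for the 2 genes. Without hypoxia replicate 1 and control replicate 4, the fetuses farthest from the IGF2 median, r was 0.86, and without control replicate 4 alone it was 0.89. IGF1 and IGF2 had r = 0.77 (exact p = 0.046, adjusted p = 0.138) and rho = 0.68 (exact p = 0.11, adjusted p = 0.208). Without control replicate 2 and hypoxia replicate 1, with the groups pooled, r was 0.26, and without control replicate 4 alone it was 0.66. With group means removed r was 0.98 (exact p = 0.00694, the smallest that 144 orders allow, adjusted p = 0.0417). With slide means removed it was 0.97 (exact p = 0.0417, the smallest that 24 orders allow, adjusted p = 0.25). IGF1 and IGFBP2 had r = 0.43 (exact p = 0.338, adjusted p = 0.405) and rho = 0.43 (exact p = 0.354, adjusted p = 0.424). For these, r was -0.20 without the same 2 fetuses, 0.28 without control replicate 4, 0.82 with group means removed and 0.67 with slide means removed, the last 2 with adjusted p = 0.125 and 0.667 in the exact tests.

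IGFBP3 passed with none of the other 3 genes. It had r = 0.63 (exact p = 0.149, adjusted p = 0.295) and rho = 0.64 (exact p = 0.139, adjusted p = 0.208) with IGFBP2, and r was 0.40 without control replicates 3 and 4. With IGF2 it had r = 0.57 (exact p = 0.197, adjusted p = 0.295) and rho = 0.64 (exact p = 0.139, adjusted p = 0.208), and r was 0.82 without control replicate 4 and hypoxia replicate 1. With IGF1 it had r = 0.31 (exact p = 0.505, adjusted p = 0.505) and rho = 0.11 (exact p = 0.84, adjusted p = 0.84), and r was -0.37 without control replicate 2 and hypoxia replicate 1. Without control replicate 4, r of IGFBP3 was 0.62 with IGFBP2, 0.61 with IGF2 and 0.26 with IGF1. With slide means removed it was 0.50, 0.29 and 0.13 in the same order of genes, each with an exact adjusted p = 0.833.

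In the RefSeq gene table of the sheep assembly ARS-UI_Ramb_v3.0, IGFBP2 lies beside IGFBP5, IGFBP3 beside IGFBP1, and IGF2 beside the insulin gene INS. IGFBP5, at -3.27, -3.62 and -2.90 in hypoxia, against -2.99, -3.24, -2.84 and -3.59 in control, differed by -0.10 on the log2 scale (SE 0.23, adjusted p = 0.857), with 0.04 at the other probe. For IGFBP1 the value was 0.50 (SE 0.44, adjusted p = 0.603), from a probe that was well above background on 6 of 7 arrays. Its interval of -0.53 to 1.53 holds the IGFBP3 value. Another 2 IGFBP1 probes, above background on 1 and 2 arrays and therefore not tested, had -0.17 and -0.30. No test of one neighbour against the other was made.

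The wider pathway was read from 5 lists with 88 genes, of which 26 were on the array by name and 23 were tested. None of the 23 passed the adjusted threshold. With an unadjusted p under 0.05 there were 1 gene higher and 3 lower in hypoxia, where 8.75% and 6.91% of all probes were. The median log2 difference over the 23 genes was -0.07, with 10 positive and 13 negative, against 0.03 over all tested probes.

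**Figure D3:**
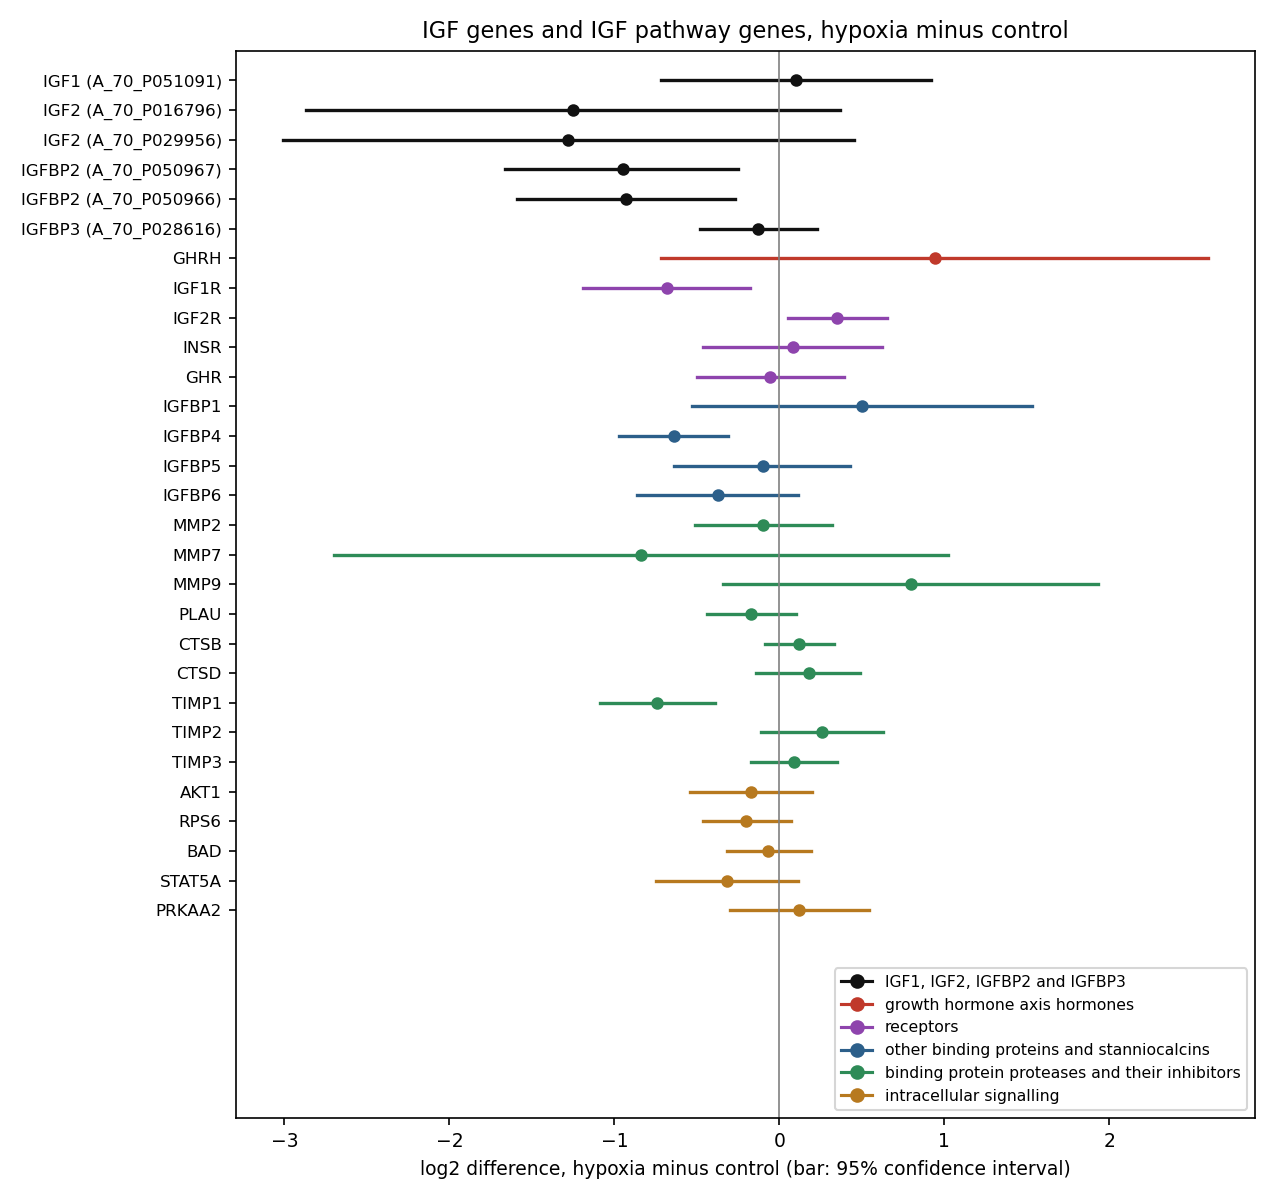
Log2 difference, hypoxia minus control, with its 95% confidence interval from limma, for the 6 IGF probes (top) and 1 probe for each of 23 pathway genes, coloured by list. The intervals of IGFBP2, IGF1R, IGFBP4 and TIMP1 lie below 0 and that of IGF2R lies above, and none passed after adjustment.

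Among receptors, 4 of 6 genes were tested. IGF1R, the signalling receptor of both ligands, had levels of -3.31, -3.15 and -2.83 in hypoxia, against -1.96, -2.47, -2.39 and -2.82 in control. The groups were just apart, by the distance between hypoxia replicate 3 and control replicate 4. The log2 difference was -0.68 (SE 0.21, unadjusted p = 0.014 in limma, adjusted p = 0.232). But 2 further IGF1R probes, whose places relative to the first were not compared, had -0.25 and -0.03. Their adjusted p was 0.449 and 0.937, and their groups overlapped.

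IGF2R, the receptor that clears IGF2, had levels of -2.82, -2.79 and -2.68 in hypoxia, against -3.21, -3.03, -2.89 and -3.32 in control. All hypoxic fetuses lay above all controls. This gave a log2 difference of 0.35 (SE 0.13, unadjusted p = 0.0271 in limma, adjusted p = 0.271). Another probe, at almost the same place (starts at bases 455 and 456), had 0.33 (adjusted p = 0.243). For the insulin receptor INSR the difference was 0.08 (SE 0.23, adjusted p = 0.892). For the growth hormone receptor GHR it was -0.06 (SE 0.19, adjusted p = 0.906).

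Among the other binding proteins, 4 of 12 listed genes were tested. IGFBP4, which is released from the ligands by the protease PAPPA, had levels of 1.45, 1.65 and 1.92 in hypoxia, against 2.20, 2.20, 2.46 and 2.40 in control. The groups were apart, and control replicate 2 stood with the other controls here. Between group means, IGFBP4 differed by -0.64 (SE 0.14, unadjusted p = 0.00238 in limma, adjusted p = 0.151). Its other probe had -0.72 (adjusted p = 0.116), but the probes start at bases 1768 and 1769 and so are not separate readings. The IGFBP4 difference was -0.52 against slide 2 and -0.76 against slide 3. PAPPA itself was not well above background on any array.

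IGFBP6, which prefers IGF2 over IGF1, had levels of 0.69, 0.95 and 1.05 in hypoxia, against 1.42, 0.73, 1.38 and 1.53 in control. Control replicate 2 lay among the hypoxic fetuses, as for IGF2. Hypoxia minus control was -0.37 (SE 0.21, adjusted p = 0.417 in limma), or -0.36 at the second probe, at almost the same place (starts at bases 726 and 727).

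Of the proteases and protease inhibitors, 9 of 19 listed genes were tested. TIMP1, a tissue inhibitor of metalloproteinases, had levels of 1.91, 2.16 and 2.43 in hypoxia, against 2.85, 2.75, 3.01 and 3.04 in control. The groups were apart, with a log2 difference of -0.74 (SE 0.15, unadjusted p = 0.00129 in limma, adjusted p = 0.124). Its other probe, at almost the same place (starts at bases 793 and 794), had -0.72. Its relative TIMP2 had 0.26 (SE 0.16, adjusted p = 0.446), and the urokinase PLAU -0.17 (SE 0.12, adjusted p = 0.483). The protease MMP2 had -0.10 (SE 0.18, adjusted p = 0.815) at the probe chosen for it. Its other probes had -0.52 (unadjusted p = 0.0324 in limma, adjusted p = 0.28) and -0.19 (adjusted p = 0.751), with overlapping groups. The gelatinase MMP9 was well above background on only 3 arrays, 2 of hypoxia and 1 of control, so that most of its values lie at background. Its value of 0.80 (SE 0.49, adjusted p = 0.447) is therefore uncertain.

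The hypothalamic hormone GHRH, which drives growth hormone release, had levels of -1.80, -0.54 and -1.55 in hypoxia, against -4.19, -2.07, -1.47 and -1.20 in control. Control replicate 1 was the lowest of the 7. The log2 difference was 0.94 (SE 0.71, adjusted p = 0.538), and hypoxia minus the controls of slide 3 was 0.04. Of 46 genes of intracellular signalling, 5 were tested and 0 passed at either threshold. The ribosomal protein RPS6, a target of the S6 kinases, had -0.20 (SE 0.11, adjusted p = 0.423), the transcription factor STAT5A -0.32 (SE 0.19, adjusted p = 0.429), the kinase AKT1 -0.17 (SE 0.16, adjusted p = 0.62) and the AMP-activated kinase subunit PRKAA2 0.12 (SE 0.18, adjusted p = 0.775). The STAT5A probe is named through its transcript record, since the files call it KITLG.

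Over the 23 genes, 4 were lower and 2 higher with groups that did not overlap, namely IGF1R, IGFBP4, TIMP1 and RPS6, and IGF2R and the cathepsin CTSB, where 7.46% and 8.76% of all tested probes were. With 23 genes these counts are too small to be read against that background.

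Markers of other cells of the region were read from 8 lists. The lists were chosen with earlier results of these data known, so a shared sign within a list is not a test. Of 30 meningeal and fibroblast genes listed, 11 were on the array and tested. At the probe chosen for each gene all 11 had a negative difference, where 5756 of the 12711 tested probes did. Their median was -0.45, against 0.03 over all probes. Their other tested probes were negative too, except for SPP1. Its second probe had 0.52 (unadjusted p = 0.0321 in limma, adjusted p = 0.28), against -0.29 at the chosen one. The median was -0.26 without hypoxia replicate 1. None passed after adjustment, and 3 were lower with an unadjusted p under 0.05 in limma, where 6.91% of all tested probes were. These were TIMP1, which is also counted among the pathway genes, the filament gene VIM and the collagen COL3A1. VIM, which radial glia and tanycytes make too, had -0.49 (SE 0.16, adjusted p = 0.235), and COL3A1 had -0.69 (SE 0.25, adjusted p = 0.265). The other COL3A1 probes had -0.70 and -0.21 (adjusted p = 0.266 and 0.786), with overlapping groups. The collagen COL1A2 had -0.45 (SE 0.29, adjusted p = 0.474). The mean level of the 11 genes, relative to each gene's mean over the arrays, was -0.55, -0.20 and 0.02 in hypoxia, against 0.14, -0.02, 0.13 and 0.47 in control. Hypoxia replicate 1 was lowest and control replicate 4 highest in this mean, as in IGF2, and control replicate 2 was the lowest control. By gene, control replicate 2 was the lowest control for COL1A2, COL3A1, COL6A1, DCN, TIMP1 and FBLN1. It was the highest for PTGDS (6.36) and SPP1 (-5.62), and between other controls for VIM, BGN and GJB2. COL6A1, well above background on 4 of 7 arrays, stood at -4.00 on control replicate 4, against -7.52 to -6.34 on the others, which raised the mean there. The part of these cells in the IGF2 and IGFBP2 differences was not tested.

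Of the choroid plexus markers only transthyretin (TTR) was tested, at -1.77, 3.49 and -0.08 in hypoxia, against 2.18, 3.69, 1.17 and 0.56 in control, which gave hypoxia minus control as -1.35 (SE 1.25, adjusted p = 0.619). Without hypoxia replicate 1 the TTR difference was -0.19, and without hypoxia replicate 2 it was -2.82. Its order was unlike that of IGF2, since control replicate 2 and hypoxia replicate 2 were highest. Endothelial markers (9 tested) had a median of -0.29, or -0.06 without hypoxia replicate 1, with 7 negative and 2 positive. PECAM1 was at -0.26, TEK at -0.59 and KDR at -0.51. The positive ones were the vasoconstrictor peptide gene EDN1 at 1.29 (adjusted p = 0.163) and the receptor FLT1 at 0.32 (adjusted p = 0.557). Other FLT1 probes had -0.53 to 0.94, and 1 of them, at 0.56 (adjusted p = 0.244), had all hypoxic fetuses above all controls. Markers of astrocytes and of radial glia or tanycytes had positive differences in 6 of 6 tested genes, a count that leaves out VIM. Over all 12711 tested probes, 5756 were lower in hypoxia. The median of the 6 genes was 0.48. Among them were the glutamate transporter SLC1A2 at 0.76 (adjusted p = 0.185), SLC4A4 at 0.45, GJA1 at 0.56, GFAP at 0.50 and AQP4 at 0.25.

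The remaining lists were small or mixed. Pituitary markers (8 tested) had a median of 0.24, or 0.03 without hypoxia replicate 1, -0.35 without control replicate 2 and 0.46 without control replicate 4, with PRL at -2.08 (-0.88 without control replicate 4), POMC at 0.08, LHB at 0.39 and NEUROD1 at -0.60 (adjusted p = 0.16). Microglial markers (4 tested) had 0.19, or 0.06 without control replicate 1, with CD14 at 0.15, ITGAM at 0.22 and TLR4 at 0.39. The 2 neuronal genes were NEFH at 0.50 and OXT at 0.36, with a median of 0.43. Without control replicate 4, OXT averaged 1.66 in hypoxia and 2.10 in the remaining controls, a difference of -0.44, and the neuronal median was -0.02. The 3 red cell genes were HBB at 0.67, AHSP at -0.33 and CA1 at -0.63, with a median of -0.33, or 0.04 without hypoxia replicate 1 or control replicate 4 and 0.09 without hypoxia replicate 3. None of these genes passed after adjustment, and their part in the IGF differences was not tested.

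**Figure D4:**
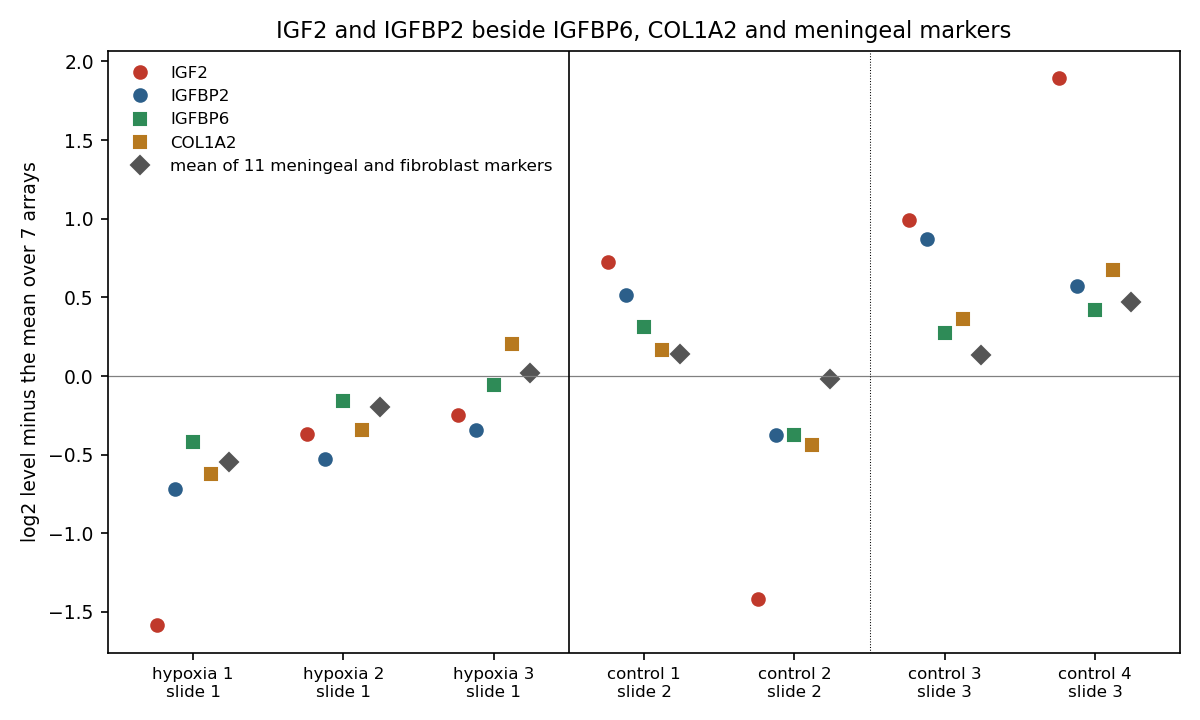
Levels of IGF2, IGFBP2, IGFBP6 and COL1A2 and the mean of 11 meningeal and fibroblast markers on each array, as log2 level minus the mean over the 7 arrays. The solid line parts hypoxia from control and the dotted line the 2 control slides. IGF2, IGFBP2, IGFBP6 and COL1A2 lie below 0 on control replicate 2 and above 0 on the other controls.

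The genes whose levels followed each IGF gene most closely were taken from 729 named genes well above background on all 7 arrays, by Pearson's r over the 7 arrays and as a description only. For IGF2 they were IGFBP6 (r = 0.983), the retinoic acid synthesis gene ALDH1A1 (r = 0.945) and COL1A2 (r = 0.945), and the most opposed was LCAT, a cholesterol-esterifying enzyme (r = -0.883). ALDH1A1 had levels of -0.64, -0.49 and -0.37 in hypoxia, against 0.44, -0.95, 0.41 and 1.68 in control. As with IGF2, control replicate 2 was low and control replicate 4 high. Its log2 difference was -0.90 (SE 0.53, adjusted p = 0.433).

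For IGFBP2 the closest genes were the membrane-binding annexin ANXA2 (r = 0.920), the troponin TNNC2 (r = 0.918) and IGFBP6 (r = 0.915), and the most opposed was the chemokine XCL1 (r = -0.961). XCL1 had levels of -2.08, -2.23 and -2.22 in hypoxia, against -3.01, -2.59, -3.18 and -2.94 in control, with a log2 difference of 0.75 (SE 0.15, adjusted p = 0.124). All hypoxic fetuses lay above all controls for XCL1, and control replicate 2 was the nearest control.

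For IGF1 the closest were the growth factor receptor MET (r = 0.914), the myosin light chain MRCL3 (r = 0.914) and SERPINF1 (r = 0.913), and the most opposed was the receptor BRS3 (r = -0.989). BRS3, which is made in hypothalamic neurons in the mouse, had levels of -2.81, -3.11 and -3.12 in hypoxia, against -3.01, -2.76, -3.08 and -3.20 in control, highest in the fetuses with least IGF1. For IGFBP3 the closest were TXNDC17 (r = 0.942), the mitochondrial gene CHCHD3 (r = 0.931) and the interferon regulator IRF3 (r = 0.863), and the most opposed was the survival gene BCL2 (r = -0.954). With 729 genes ranked over only 7 arrays, none of these is a test.

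**Figure D5:**
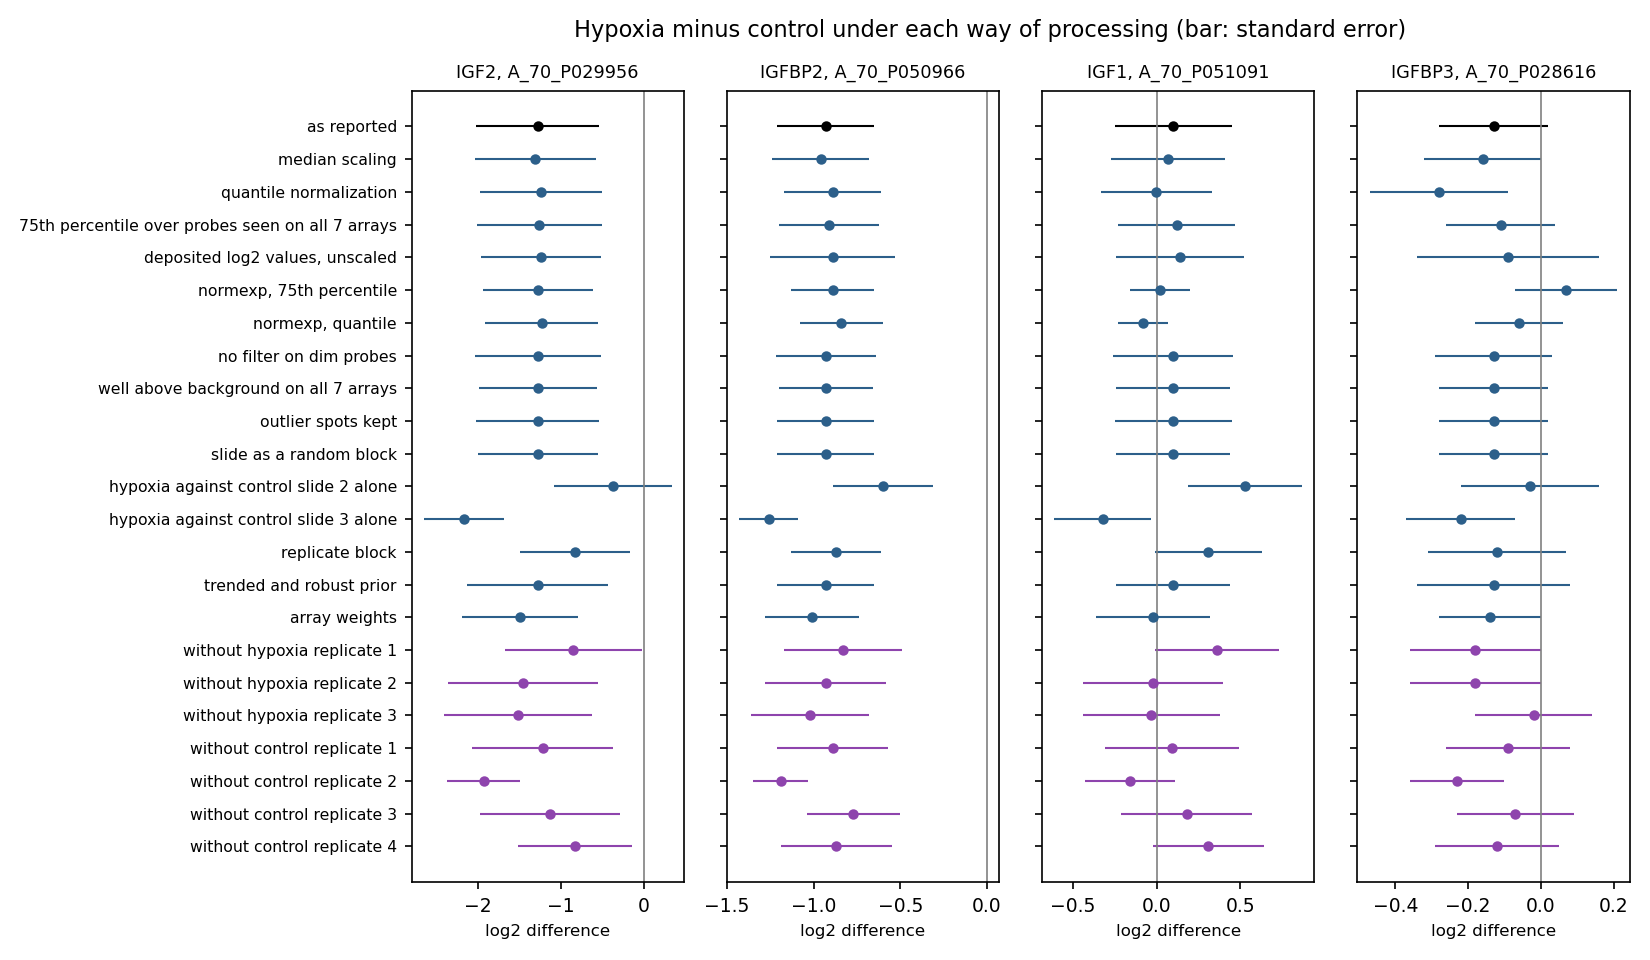
Log2 difference, hypoxia minus control, with its standard error, for IGF2, IGFBP2, IGF1 and IGFBP3 under each way of processing and with each fetus left out (purple). IGF2 and IGFBP2 lie below 0 in every row, and IGF1 lies on either side of 0.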

How the data were processed

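Groups, replicate numbers and treatment times come from the sample labels, and slides from the scanner files. Per the labels' protocols, RNA integrity numbers were 7.4 to 8.4. Per the file headers, spot intensities were extracted and background-corrected with Agilent Feature Extraction 10.1.1.1. The deposited log2 value table equals the log2 of the processed intensity of each array within 5e-09, unscaled, with column medians of 8.80, 8.59 and 8.73 for hypoxia and 8.42, 8.45, 8.99 and 8.70 for control. No source used here gives the authors' test.

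Levels are log2 processed intensity minus the array's 75th percentile over non-control spots. Spots of 1 probe were averaged, and 34 probe values marked as outlier spots were left out. Tests covered 12711 of 15008 probes, those well above background in 3 or more of the 7 arrays, and used limma 3.58.1 (R 4.3.3, lmFit and eBayes, 2-sided, Benjamini-Hochberg over all tested probes, threshold 0.05). The procedure was tested on simulated data. The number of arrays limits the precision.

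Probes were named by transcript record, gene ID, symbol or older name, with the RefSeq table of ARS-UI_Ramb_v3.0, and 13414 stayed unnamed. A gene's probe is that with the highest mean level. All probes of the 4 genes are given. Pathway genes are named by unadjusted p (all under 0.05 and up to 4 per list), markers by up to 3 smallest p and the first 2 listed, and look-alike genes by the 3 highest r and the lowest. Further genes are named where genes of a list, or probes of a gene, differed from each other. The 4 genes and the lists were chosen with earlier results of these data known. Alternatives were other scalings, normexp background correction (offset 50), other filters, slide or replicate as blocks, single control slides, other priors and weights, and leaving out each array. Correlations with group or slide means removed, and without control replicate 4, were added after seeing the data.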

Additional observations from a re-analysis of the deposited data

Results flagged for a closer look

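In 72 sets of 4 control values, for the IGF probes and the list genes, 7 had a fetus far from the other 3 by Dixon's ratio, where chance gives about 3.6 (1 in 20). None of the 6 IGF probes was among them. On control replicate 2, the matrix gene DCN stood at 1.23 against 2.01 to 2.09 on the other controls, FBLN1 at -2.77 against -2.39 to -2.35, and PTGDS at 6.36 against 5.92 to 5.99. On control replicate 4, PRL stood at 1.13 against -3.80 to -3.46, and the probe named COL6A1, described in the files as a collagen VI alpha 3 chain, at -4.00 against -7.50 to -6.91. MMP2 stood at -3.97 on control replicate 3 against -3.62 to -3.56, and NEFH at -2.43 on control replicate 1 against -3.46 to -3.37. Control replicates 2 and 4 are also the lowest and the highest controls in IGF2.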

How the results depend on the processing

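IGF2 and IGFBP2 were lower in hypoxia under all alternatives run. In limma the adjusted p was between 0.174 and 0.818 for IGF2 at A_70_P029956 (-2.17 to -0.38). It was between 0.084 and 0.611 for IGFBP2 at A_70_P050966 (-1.26 to -0.60). In any of 22 alternatives 0 of the 6 probes passed in limma. As reported, 2 of 6 had an unadjusted p under 0.05, both the same IGFBP2 measurement. IGF1 turned to -0.0013 with quantile normalization, -0.08 with normexp and quantile, -0.32 against control slide 3 alone and -0.02 with array weights, and leaving out each array gave -0.16 to 0.36, negative without control replicate 2 or hypoxia replicate 2 or 3. IGFBP3 turned to 0.07 with normexp and the 75th percentile, and the cause was not tested. The count of probes past the adjusted threshold, 2 as reported, was 0 with quantile normalization (1946 at an unadjusted p under 0.05 in limma), 0 with the scaling taken from probes seen on each of the 7 arrays (2022) and 0 without the filter (1947). It was 10 with the deposited values, 10 and 35 with normexp at the 75th percentile and with quantiles, 25 with the filter on all 7 arrays, 57 with a trended and robust prior and 4 with array weights. It was 232 against control slide 2 alone, 4 against slide 3 alone, and 2 with slide as a random block (correlation -0.03). Leaving out arrays gave 0 to 6: 6 without control replicate 2, 1 without any of the hypoxia replicates, and 0 without control replicate 1, 3 or 4 (1735, 1834 and 2090 unadjusted). With the deposited values, 321 of 981 probes with an unadjusted p under 0.05 were lower, against 878 of 1990 as reported. Same-numbered hypoxia and control arrays had deviations that correlated at 0.12, 0.09 and 0.11, and each correlated best with its own number, a hint from the data and not the design. With the replicate block, 0 probes passed (2132 unadjusted), and IGF2 was -0.83 (adjusted p = 0.556), IGFBP2 -0.87 (adjusted p = 0.249), IGF1 0.31 and IGFBP3 -0.12. The median of the meningeal markers was -0.57 to -0.26, that of the endothelial markers -0.39 to -0.06 and that of the microglial markers 0.06 to 0.31, with TTR at -2.82 to -0.19. The medians of the 23 pathway genes (-0.12 to 0.01) and of neuronal (-0.16 to 1.03), pituitary (-0.47 to 0.59) and red cell genes (-0.65 to 0.17) changed sign. Without control replicate 4, an alternative added after seeing the data, the OXT difference turned to -0.44 (0.36 as reported). The IGF1 and IGFBP3 spots were dim, at 2.35 to 3.71 and 1.61 to 2.79 times their local background. The IGF2 probe A_70_P016796 was at 2.71 to 16. Its difference was -1.91 to -0.60 over the alternatives, and -1.02 with normexp and the 75th percentile.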
